A study of Rattus norvegicus with 6 samples.

Results

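The collagen genes of rat myocardium were taken as every gene whose symbol reads Col, a type number, the letter a and a chain number, which gave 42 of the 28293 genes in the table. RNA of 3 sham samples and 3 ischemia/reperfusion (I/R) samples was compared, all labelled WT, from male rats, and all carrying the times 30 min and 6 h in their titles. In the I/R procedure the left anterior descending coronary artery was tied off for 30 min under anaesthesia and ventilation, and the heart was taken 6 h after the ligature was released. The labels give the sham samples the treatment Sham without saying which of these steps they shared, and give no strain, age or part of the heart. They number the samples but do not say that each came from a separate rat, so p-values here measure the spread between samples.

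Collagens are proteins of 3 chains wound into a triple helix, most of them secreted, and each chain has its own gene. Fibrillar collagens assemble into the tension-bearing fibres of the heart's interstitium, basement membrane collagens form sheets around capillaries and cardiac myocytes, and type VI collagen forms beaded filaments between the sheets and the fibres. Cardiac fibroblasts are a main source of the fibrillar chains, while endothelial cells and mural cells also make basement membrane chains. In healing infarcts collagen is deposited as a scar over days to weeks, after the early inflammatory phase.

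Values are FPKM, fragments divided by transcript length and by a library total whose definition is not given, so levels of different genes are given per length. Genes whose FPKM averaged 0.5 or more across samples were tested with limma on log2(FPKM + 0.1), and fold changes are on that scale, which understates changes of low genes. Of the 42 collagens, 18 passed this filter. Relative depth, worked out from the FPKM values and so standing for that total, ran from 0.873 to 1.18 times that of sham replicate 1. The tested collagens rested on 47 to 58529 fragments per sample. The 13 mitochondrially encoded mRNAs took 80.1 to 86.2% of the summed FPKM in sham and 61.8 to 71.5% in I/R, and the 10942 genes tested had a median log2 fold change of 0.29. The collagen values below are therefore set against that median.

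At 6 h of reperfusion 4 of the 18 tested collagens rose in I/R and none fell, by the limma adjusted p. The 4 were Col1a1, a chain of the main fibril-forming collagen, Col15a1 of basement membrane zones, Col6a2 of the type VI filaments and Col14a1, which binds to the surface of fibrils. They make up 22.2% of the tested collagens, against 25.5% of all genes called higher and 7.36% called lower, so the collagens' share was near the background. At an unadjusted p under 0.05 in limma, 9 collagens were higher and 1 was lower, beside 33.7% and 11.0% of all genes. Groups did not overlap in 10 of the 18, with I/R above sham in 9 (50%, against 37.2% of all genes) and below in 1 (against 13.0%).

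The size of the differences was modest. The median log2 fold change of the 18 was 0.54, with 16 above 0 and 13 above the median of all genes. That direction depended on the scale, with 16 of 18 above 0 as TPM, 14 after centring each sample on its median gene, 7 after quantile normalization and 3 on the non-mitochondrial scale, in which a sample's FPKM are divided by its sum outside those 13 mRNAs. Without sham replicate 3 no collagen was called, beside 14.0% of all genes called higher in that fit, and without I/R replicate 3 the count was 1, beside 21.5%. That 1 collagen was not among the 4 called above, which all lost their call without I/R replicate 3. Without I/R replicate 1 or I/R replicate 2 the count was 2, beside 18.9% and 20.7% of all genes. Blocking on the replicate number gave 7 collagens called higher and none lower, among 28.2% and 8.18% of all genes. The block added Col4a1, with a limma adjusted p of 0.0252, Col4a2, with 0.0189, and Col5a1, with 0.0419. Replicate numbers come from the titles, which name no shared batch or pairing.

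**Figure D1:**
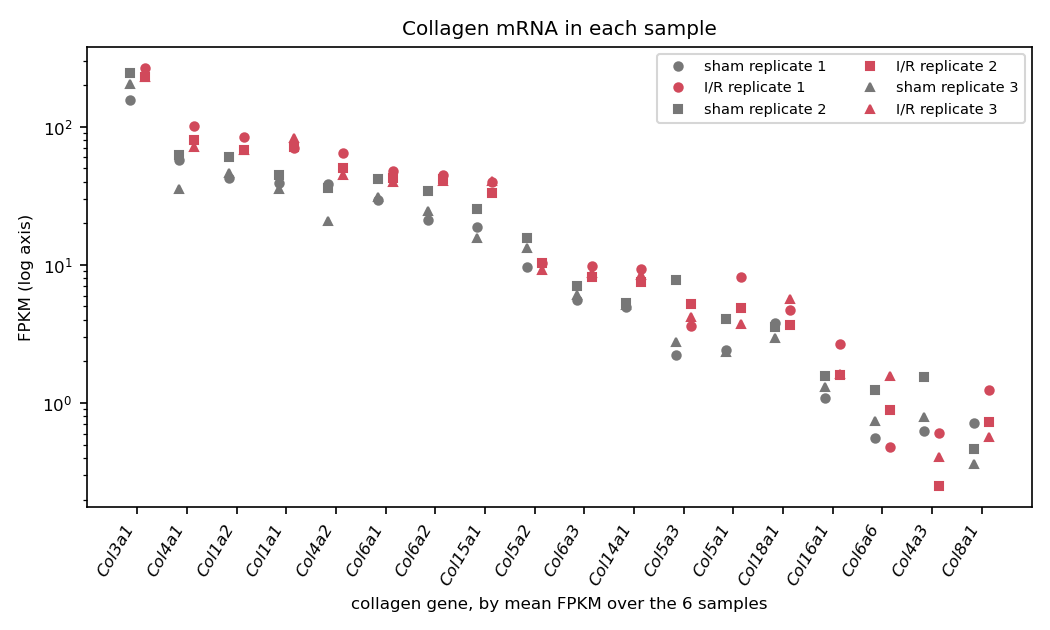
FPKM (log axis) of the 18 tested collagen genes, ordered by mean level, in the 3 sham samples (grey) and the 3 I/R samples (red), with marker shapes for the replicate number. The levels run from Col3a1, at 155.5 to 266, down to Col8a1, at 0.364 to 1.24, and the groups separate on this scale for 10 genes, among them Col1a1, Col15a1 and Col14a1.

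The collagen mRNA of these samples was dominated by a few genes. Col3a1, Col4a1, Col1a2, Col1a1 and Col4a2, in order of mean FPKM, gave 74.6 to 76.3% of the summed collagen FPKM in every sample, and the 18 tested genes together gave at least 99.3%. The summed level was 437, 601 and 449 FPKM in sham and 771, 662 and 661 in I/R, a mean of 496 ± 91.6 against 698 ± 62.9 (SD, n = 3 each). Each I/R sample was thus above each sham sample. Taken as a percent of the FPKM outside the mitochondrially encoded mRNAs, the sum was 0.243, 0.451 and 0.349% in sham and 0.276, 0.276 and 0.281% in I/R. On that base the groups overlapped and the I/R mean of 0.278 ± 0.00293% lay below the sham mean of 0.348 ± 0.104%. In bulk tissue, a change in the number of cells of a type and one in RNA per cell cannot be told apart. A share also moves with the other genes in its base.

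Among the fibrillar collagens, which bear tension, 1 of the 6 tested genes (of 11 in the table) rose and none fell. Beside them, 25.5% of all genes were called higher and 7.36% lower. The median log2 fold change of the fibrillar genes was 0.42, beside 0.29 for all genes. Col1a1 and Col1a2 encode the chains of type I collagen, the most abundant fibre of the heart. Col1a1 was at 39.0, 44.6 and 35.5 FPKM in sham and at 69.6, 71.6 and 82.6 in I/R. The lowest I/R sample was well above the highest sham sample, and the rise of 0.91 ± 0.22 (log2, SE; limma adjusted p = 0.0135) turned to -0.12 after quantile normalization. Without sham replicate 3 the adjusted p of Col1a1 was 0.0602, and without I/R replicate 3 it was 0.0523.

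Col1a2, the partner chain, was at 42.8, 60.4 and 46.3 FPKM in sham and 84.2, 68.2 and 67.8 in I/R. The groups did not overlap, with a log2 fold change of 0.57 ± 0.24 that missed the threshold (limma adjusted p = 0.0948). Col3a1, which forms the finer type III fibres, had the highest level of any collagen, at 155.5, 245 and 202 FPKM in sham and 266, 229 and 228 in I/R. Sham replicate 2 lay inside the I/R range, and the log2 fold change of 0.28 ± 0.25 was at the median of all genes (limma adjusted p = 0.414).

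Type V collagen chains start fibrils and limit their width, and their genes did not move together. Col5a1 was at 2.43, 4.05 and 2.36 FPKM in sham and 8.11, 4.89 and 3.76 in I/R. I/R replicate 3 was below sham replicate 2, so the groups overlapped, and the log2 fold change was 0.87 ± 0.32 (limma adjusted p = 0.0643). Col5a2 was at 9.63, 15.7 and 13.2 FPKM in sham and 10.3, 10.4 and 9.16 in I/R. It was the one tested fibrillar gene with a negative log2 fold change, -0.34 ± 0.24, and missed the threshold (limma adjusted p = 0.302). Col5a2 was called lower after centring each sample on its median gene (-0.59, limma adjusted p = 0.049), on the non-mitochondrial scale (-1.12, limma adjusted p = 0.0122) and after quantile normalization (-1.02, limma adjusted p = 0.0223). Col5a3 was set by 1 sample, with 7.72 FPKM in sham replicate 2 against 2.24 and 2.75 in the other sham samples and 3.63, 5.20 and 4.21 in I/R.

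The promoter windows of Col1a2 and Col5a2 are shown to let their start regions be compared. Col1a2 is a fibrillar gene without group overlap and Col5a2 the tested fibrillar gene that went the other way. They are RefSeq sequences on GRCr8, 250 bases before to 50 after the gene start, read along the gene. Capitals mark matches to the CCAAT box itself, to TATAAA as a TATA box, to GGGCGG as a GC box or to CAGACA as a Smad-type motif, each searched on both strands, with no overlap between matches in these windows. Col1a2 is at chr4:33518307-33518606 on the plus strand, with CCAAT on the opposite strand (read as ATTGG) at base -221 from the start and TATAAA at -170. Col5a2 is at chr9:55090102-55090401 on the minus strand, with CAGACA at -103.
Col1a2: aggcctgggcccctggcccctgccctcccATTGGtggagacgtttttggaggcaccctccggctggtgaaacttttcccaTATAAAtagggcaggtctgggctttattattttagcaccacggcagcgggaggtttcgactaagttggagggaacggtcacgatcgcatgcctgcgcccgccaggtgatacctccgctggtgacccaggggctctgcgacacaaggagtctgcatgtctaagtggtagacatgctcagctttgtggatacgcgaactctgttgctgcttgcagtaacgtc
Col5a2: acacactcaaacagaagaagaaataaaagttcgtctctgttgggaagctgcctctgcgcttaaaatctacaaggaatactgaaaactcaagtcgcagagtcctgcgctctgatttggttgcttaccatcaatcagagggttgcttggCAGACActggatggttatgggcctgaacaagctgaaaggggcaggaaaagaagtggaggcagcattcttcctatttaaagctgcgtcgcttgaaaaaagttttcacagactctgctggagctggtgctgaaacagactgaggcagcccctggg

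RefSeq windows were matched for 33 of the 42 collagens and for 14 of the 18 tested. TATAAA was in 1 of the 14, Col1a2, and in 14.3% of all 27457 windows of that length. CAGACA was in 3 of the 14, Col5a2, Col15a1 and Col8a1, and in 20.8% of all windows. CCAAT was in 4 of 14 against 37.7% of all, and GGGCGG in 9 of 14 against 34.9%. These are letter matches only. Col5a2 and Col3a1 lie 38189 bases apart with no protein-coding gene between them in the RefSeq annotation, and the FPKM of Col5a2 over that of Col3a1 was 0.0620, 0.0642 and 0.0653 in sham and 0.0388, 0.0452 and 0.0402 in I/R. That ratio, chosen after the values were seen and so given without a test, was lower in every I/R sample.

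Of the basement membrane collagens 1 of 5 tested genes (of 6 in the table) was called higher and none lower, beside 25.5% and 7.36% of all genes. Their median log2 fold change was 0.72, beside 0.29 for all genes. The basement membrane median was above those of the fibrillar and type VI genes as deposited and was 0.47 without sham replicate 3. It lay below the type VI median after quantile normalization (-0.17 against -0.12). Col15a1 encodes a collagen with sugar side chains in the basement membrane zone of capillaries and muscle fibres. It was at 18.8, 25.3 and 15.6 FPKM in sham and 39.5, 33.0 and 40.7 in I/R, without overlap, and rose by 0.94 ± 0.25 (log2, SE; limma adjusted p = 0.0181). This was the largest positive log2 fold change of the 18 and stayed above 0 under each scaling tried, at 0.16 on the non-mitochondrial scale and 0.078 after quantile normalization, both without a call. Its adjusted p was 0.0793 without sham replicate 3 and 0.0579 without I/R replicate 3. Col18a1, its near relative and the source of the fragment endostatin, was at 3.78, 3.58 and 2.94 FPKM in sham and 4.68, 3.70 and 5.62 in I/R, where I/R replicate 2 fell inside the sham range (0.42 ± 0.24, limma adjusted p = 0.194).

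Col4a1 and Col4a2 encode the chains of the type IV network present in nearly every basement membrane, and the ratio of their mRNAs overlapped between sham and I/R. Col4a1 was at 57.6, 62.4 and 35.3 FPKM in sham and 101, 79.4 and 70.7 in I/R. Col4a2 was at 38.6, 36.2 and 20.9 FPKM in sham and 64.0, 50.04 and 44.3 in I/R. Both were above sham in every I/R sample and lowest of all in sham replicate 3. Neither passed the test without the block, at 0.72 ± 0.28 for Col4a1 (limma adjusted p = 0.0757) and 0.76 ± 0.29 for Col4a2 (limma adjusted p = 0.0697). The ratio of Col4a1 to Col4a2, chosen after the values were seen, was 1.49, 1.72 and 1.69 in sham and 1.58, 1.59 and 1.60 in I/R, so that the groups overlapped.

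These genes start 76 bases apart on opposite strands, and the window of Col4a1 therefore runs from inside Col4a2 across the shared start region. It is printed because, of the 10 ratios examined, that of the genes it joins differed least between groups (-0.04 on the log2 scale). The RefSeq window on GRCr8 is at chr16:84885347-84885646 on the plus strand, holds 75.0% G and C, and has the 76 bases between the starts in capitals.
Col4a1: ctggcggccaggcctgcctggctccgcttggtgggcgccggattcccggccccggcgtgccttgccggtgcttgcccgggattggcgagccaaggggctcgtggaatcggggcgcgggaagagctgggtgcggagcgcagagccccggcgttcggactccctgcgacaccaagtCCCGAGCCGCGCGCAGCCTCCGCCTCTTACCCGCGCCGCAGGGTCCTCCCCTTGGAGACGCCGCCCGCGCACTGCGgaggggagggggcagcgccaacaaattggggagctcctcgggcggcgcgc

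Col4a3, a chain of the specialised type IV network best known from the kidney glomerulus, was the one tested collagen with all I/R samples below all sham samples. It was at 0.633, 1.53 and 0.790 FPKM in sham and 0.606, 0.250 and 0.408 in I/R, on 146, 418 and 207 fragments in sham and 122, 54 and 83 in I/R. The gap between the groups was narrow, and the log2 fold change of -1.03 ± 0.42 missed the threshold (limma adjusted p = 0.0853). Col4a3 was called lower after median centring (-1.28, limma adjusted p = 0.0295) and on the non-mitochondrial scale (-1.71, limma adjusted p = 0.0148). Its start is 412 bases from that of Col4a4 on the opposite strand in RefSeq. The Col4a3 window, shown as the contrast to the Col4a1 window, is at chr9:91323740-91324039 on the plus strand of GRCr8, with GGGCGG in capitals at base -72.
Col4a3: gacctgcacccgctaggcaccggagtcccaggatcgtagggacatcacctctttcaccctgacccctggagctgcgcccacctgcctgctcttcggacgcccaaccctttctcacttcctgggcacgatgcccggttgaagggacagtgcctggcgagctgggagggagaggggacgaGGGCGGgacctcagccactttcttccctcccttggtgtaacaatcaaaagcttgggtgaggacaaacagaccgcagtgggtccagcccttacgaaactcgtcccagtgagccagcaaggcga

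Of the type VI genes, 1 of the 4 tested (of 6 in the table) rose and none fell, beside 25.5% and 7.36% of all genes. Their median log2 fold change was 0.44, beside 0.29 for all genes. Col6a1, Col6a2 and Col6a3 encode the chains that join in one type VI molecule. Col6a2 was at 21.0, 34.0 and 24.4 FPKM in sham and 44.7, 42.1 and 40.7 in I/R, without overlap. Its rise of 0.71 ± 0.24 was at the edge of the threshold (limma adjusted p = 0.0496), turned negative after quantile normalization (-0.23) and on the non-mitochondrial scale (-0.074), and was called in 1 of 6 fits that left out a sample.

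Its partner Col6a1 was at 29.2, 41.7 and 30.8 FPKM in sham and 48.0, 42.8 and 39.9 in I/R, where I/R replicate 3 lay below sham replicate 2 (0.37 ± 0.23, limma adjusted p = 0.244). Col6a3, the largest chain, was at 5.56, 6.99 and 6.07 FPKM in sham and 9.83, 8.11 and 8.71 in I/R, without overlap (0.51 ± 0.21, limma adjusted p = 0.0923). The ratio of Col6a1 to Col6a2, chosen after the values were seen, was 1.39, 1.23 and 1.26 in sham and 1.07, 1.02 and 0.982 in I/R, lower in every I/R sample. In the RefSeq annotation Col6a1 and Col6a2 are neighbours, with no protein-coding gene between them. Col6a6, an alternative to the Col6a3 chain, had the smallest log2 fold change of the 18 in size, 0.11 ± 0.43, with 0.563 to 1.25 FPKM in sham and 0.482 to 1.56 in I/R.

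Outside these classes 3 collagens passed the filter. Col14a1 belongs to the FACIT collagens, which attach to the surface of fibrils rather than forming them. It was at 4.96, 5.28 and 5.16 FPKM in sham and 9.38, 7.47 and 8.40 in I/R. The sham samples were close together and all below I/R, and Col14a1 rose by 0.70 ± 0.21 (log2, SE; limma adjusted p = 0.029), although the value was -0.077 on the non-mitochondrial scale. Its call was lost in each of the 6 fits that left out a sample, with limma adjusted p between 0.0533 and 0.0872. Col16a1, another FACIT gene, was at 1.09 to 1.56 FPKM in sham and 1.61 to 2.66 in I/R, without overlap (0.52 ± 0.27, limma adjusted p = 0.172). Col8a1, a short chain network collagen of vessel walls, was at 0.364 to 0.721 FPKM in sham and 0.569 to 1.24 in I/R (0.60 ± 0.38, limma adjusted p = 0.252).

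**Figure D2:**
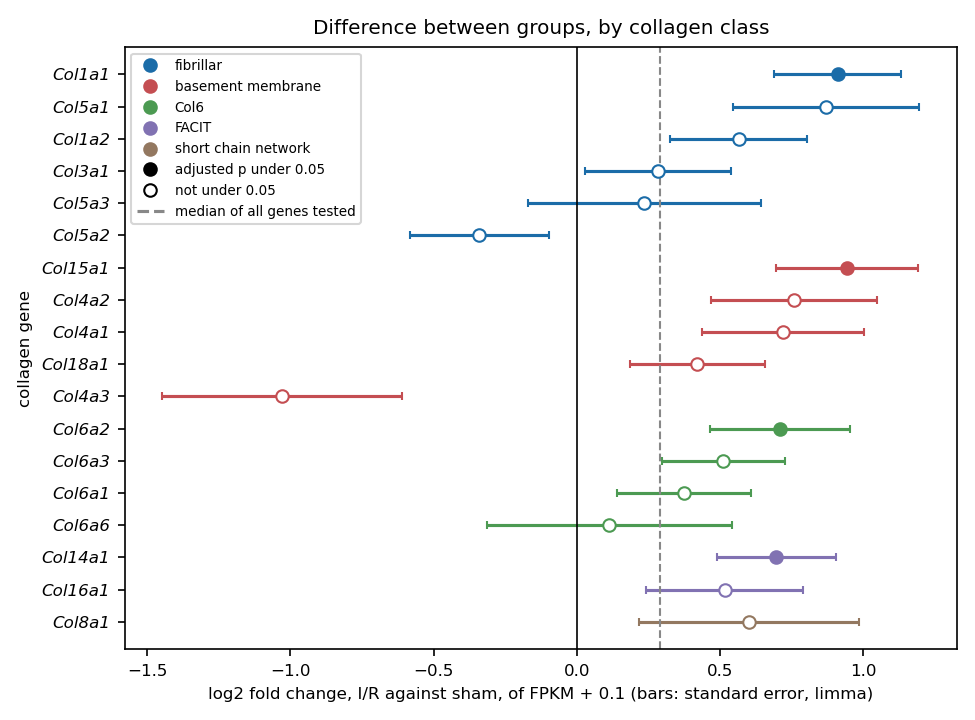
Log2 fold change of I/R against sham for the 18 tested collagens, by class, with limma's standard error as bars, filled points for adjusted p under 0.05, a solid line at 0 and a dashed line at the median of all genes tested (0.29). Filled points are Col1a1, Col15a1, Col6a2 and Col14a1 on the deposited scale, and Col1a1, Col6a2 and Col14a1 each fall below 0 under at least 1 other scaling.

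The other 24 collagens were below the filter, at mean FPKM of 0.00539 to 0.449, and were not tested. The highest of them were Col27a1 and Col24a1, minor fibrillar genes, and Col8a2, the partner of Col8a1. Col27a1 was at 0.277 to 0.560 FPKM in sham and 0.385 to 0.520 in I/R. Col24a1 was at 0.119 to 0.526 FPKM in sham and 0.183 to 0.371 in I/R, and Col8a2 at 0.147 to 0.460 in sham and 0.141 to 0.455 in I/R. The groups overlapped in 17 of the 24, with I/R above sham in 2 and below in 5, beside 6.34% and 10.1% of all genes above 0 and below the filter. At this depth 14 of them had at most 100 fragments over the 6 samples and 6 were listed at 0 in at least 1 sample, so most rested on few fragments. None of the 4 transmembrane collagens passed the filter.

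Contrasting the classes directly, fibrillar, basement membrane and type VI genes took shares of the collagen FPKM that overlapped between groups. Fibrillar genes took 57.9, 63.1 and 67.5% in sham and 57.5, 58.9 and 59.9% in I/R. Basement membrane genes took 27.3, 21.5 and 16.9% in sham and 27.3, 25.2 and 24.5% in I/R. Type VI genes took 12.9, 14.0 and 13.8% in sham and 13.4, 14.2 and 13.7% in I/R. Sham replicate 3 held the highest fibrillar and the lowest basement membrane share, and the I/R samples varied less than the sham samples in both.

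Within the pool, single genes separated where classes did not. The share of Col3a1 was 35.6, 40.8 and 45.0% in sham and 34.5, 34.6 and 34.4% in I/R, and that of Col1a1 was 8.92, 7.42 and 7.91% in sham and 9.03, 10.8 and 12.5% in I/R. Col5a2 took 2.21, 2.62 and 2.94% in sham and 1.34, 1.57 and 1.38% in I/R. In all, 3 shares of tested collagens were higher in every I/R sample (Col1a1, Col6a2 and Col15a1), 4 were lower (Col3a1, Col6a1, Col5a2 and Col4a3) and 11 overlapped. Such shares are not altered by the scaling of a library, but they sum to a whole, so that a gain of one gene lowers the others. Shares of this kind were not computed within other sets of genes, so these counts have no background. For FPKM, a different measure, groups did not overlap in 37.2% of all genes with I/R higher and 13.0% with I/R lower.

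**Figure D3:**
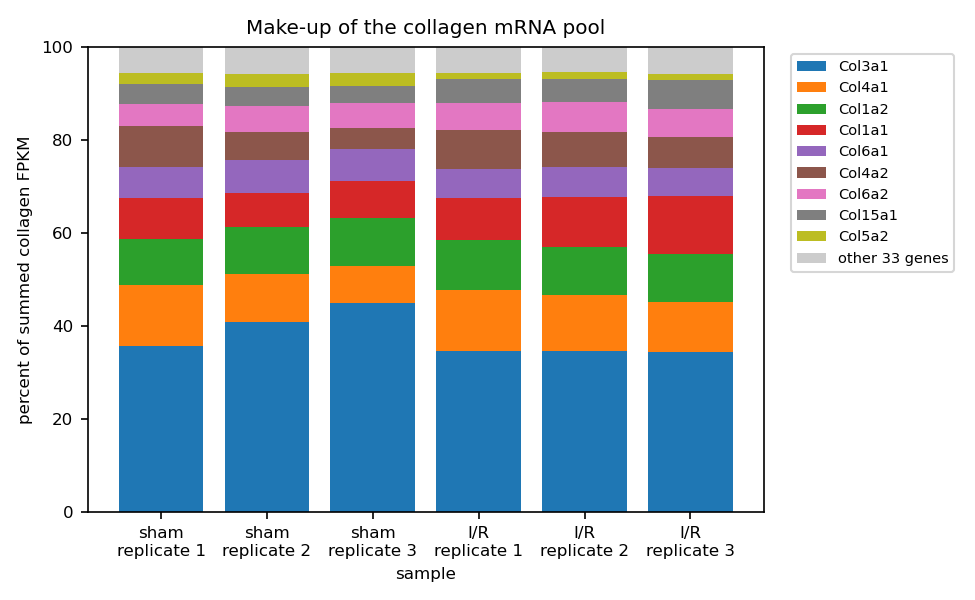
Stacked bars of each gene's percent of the summed collagen FPKM in each of the 6 samples, for the 9 genes with the highest means and the remaining genes together. Col3a1 is the largest part in every sample, at 35.6 to 45.0% in sham and 34.4 to 34.6% in I/R.

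Ratios of one collagen mRNA to another within a sample do not depend on library scaling, apart from the pseudocount, and 3 of them, one for each pair of classes, were tested. The smallest p that 3 against 3 samples allow is 0.1, so none could reach 0.05. Col1a1 over Col6a1, fibrillar against type VI, was 1.33, 1.07 and 1.15 in sham and 1.45, 1.67 and 2.07 in I/R. It was higher in each I/R sample, by 0.54 on the log2 scale (two-sided exact permutation p = 0.1, 0.3 after Benjamini-Hochberg adjustment over 3 ratios). Col1a1 over Col4a1, fibrillar against basement membrane, was 0.676, 0.715 and 1.0 in sham and 0.688, 0.901 and 1.17 in I/R, overlapping, with a difference of 0.19 (exact permutation p = 0.6, adjusted 0.6). Col4a1 over Col6a1 was 1.97, 1.5 and 1.15 in sham and 2.11, 1.86 and 1.77 in I/R, overlapping, with a difference of 0.35 (exact permutation p = 0.3, adjusted 0.45). Paired by replicate number, which was added after the data were seen, each of the 3 ratios was higher in I/R in 3 of 3 pairs, and the two-sided exact sign-flip p was 0.25 for each, the smallest that 3 pairs allow. The 3 results are not independent, since on the log2 scale Col1a1 over Col6a1 is the sum of the others.

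Other ratios were chosen after the values were seen and are given without a test. Within type I collagen, Col1a1 over Col1a2 was 0.909, 0.738 and 0.767 in sham and 0.826, 1.05 and 1.22 in I/R, so the groups overlapped. Between the main fibrillar collagens, Col1a1 over Col3a1 was 0.251, 0.182 and 0.176 in sham and 0.261, 0.312 and 0.362 in I/R, higher in every I/R sample by 0.63 on the log2 scale. Within type V collagen, Col5a2 over Col5a1 was 3.97, 3.88 and 5.60 in sham and 1.27, 2.12 and 2.44 in I/R. This was the widest separation of the 10 ratios, a log2 difference of -1.21.

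**Figure D4:**
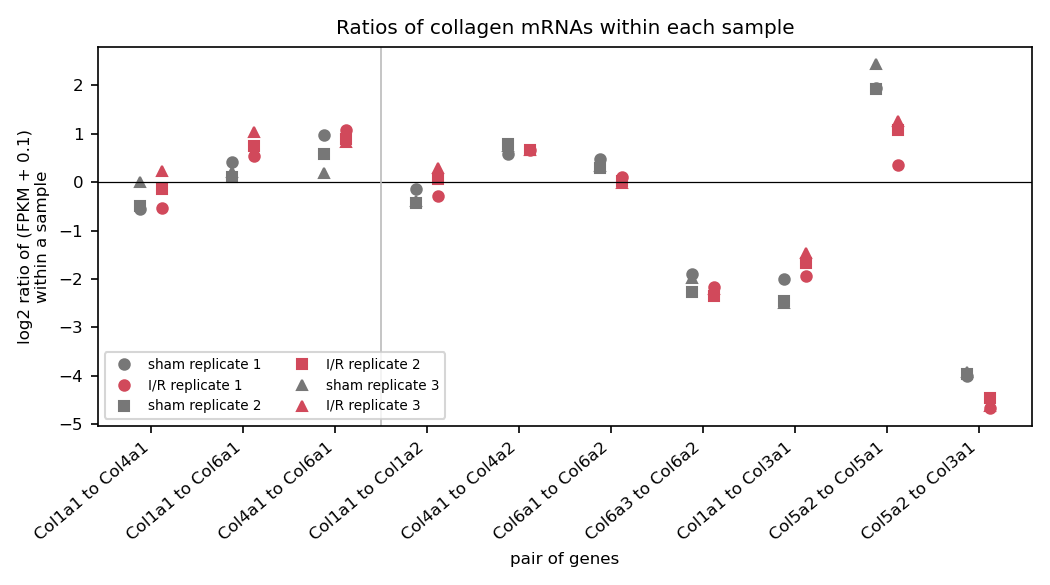
Log2 ratio of FPKM + 0.1 of gene pairs within each sample, with sham in grey and I/R in red and marker shapes for the replicate number, and a grey line between the 3 tested ratios on the left and the 7 chosen after the values were seen. Col5a2 to Col5a1 differs by -1.21 between groups and Col4a1 to Col4a2 by -0.04.

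The collagens also differed in how much they varied within a group. The coefficient of variation of the 18 tested genes had a median of 24.4% in sham and 15.5% in I/R, and was larger in sham for 12 genes. It was not computed for genes other than collagens. Sham replicate 2 held the highest sham value for 15 of 18 genes, and I/R replicate 1 held the highest I/R value for 12 of 18. The sham coefficient ran from 3.16% for Col14a1 to 71.4% for Col5a3.

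Direction depended on scaling for most members. Rescaling to TPM, so that all samples have the same sum, gave 7 collagens called higher and none lower, among 31.5% and 4.61% of all genes. Median centring gave 2 called higher and 2 lower, among 18.5% and 14.2% of all genes. The non-mitochondrial scale gave none higher and 2 lower, among 7.25% and 26.1%, and moved the median of all genes to -0.46. Quantile normalization gave none higher and 1 lower, among 13.2% and 14.2%. Against the median of all genes, 13 of 18 collagens were above as deposited and 8 of 18 after quantile normalization, the one scaling of these that can change a gene's place against that median beyond the pseudocount.

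**Figure D5:**
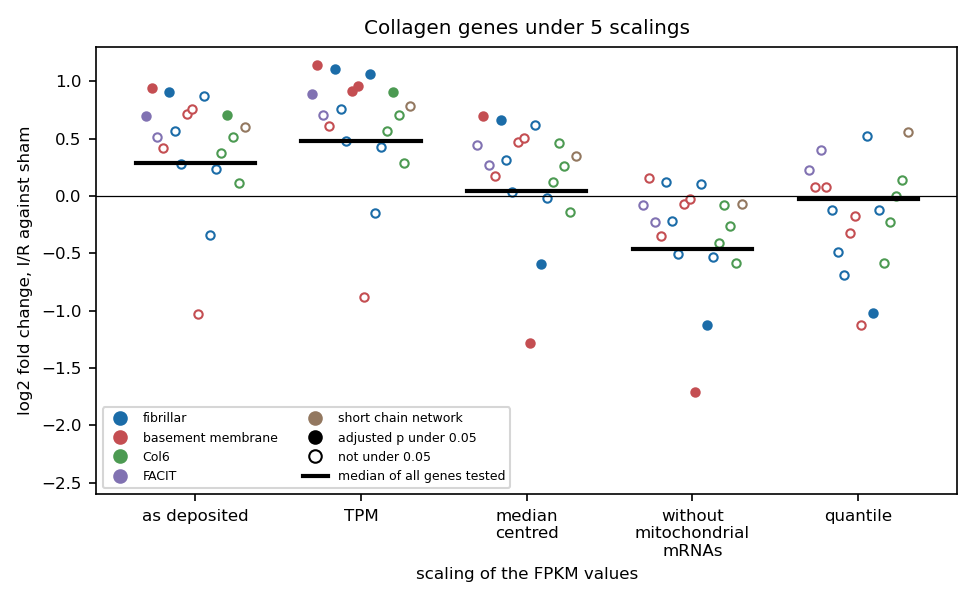
Log2 fold change of I/R against sham of the 18 tested collagens, coloured by class, under 5 scalings of the FPKM values, with filled points for limma adjusted p under 0.05 and a black bar at the median of all genes tested. The genes above 0 number 16 as deposited, 16 as TPM, 14 after median centring, 3 on the non-mitochondrial scale and 7 after quantile normalization, so the direction of the class flips with the scaling.

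Genes whose products make and finish collagen were counted from lists of pathway members. Of those for hydroxylation, glycosylation and folding, 19 of 21 listed genes were tested, 3 rose and none fell, with a median log2 fold change of 0.24, beside 25.5% of all genes and their median of 0.29. The counts became 2 higher and 1 lower after centring, 0 and 2 on the non-mitochondrial scale and 1 and 2 after quantile normalization. All genes gave 18.5% higher and 14.2% lower after centring, 7.25% and 26.1% on the non-mitochondrial scale, and 13.2% and 14.2% after quantile normalization. The 3 genes that rose as deposited were Sec24d, part of the coat that carries procollagen out of the endoplasmic reticulum (mean 1.27 FPKM in sham and 3.48 in I/R, 1.38 ± 0.28, limma adjusted p = 0.00699), P4hb, the common subunit of prolyl 4-hydroxylase (20.7 and 42.2 FPKM, 1.02 ± 0.23, limma adjusted p = 0.0106), and Serpinh1, the collagen chaperone HSP47 (53.4 and 96.1 FPKM, 0.84 ± 0.25, limma adjusted p = 0.0306). P4hb was at 0.23 on the non-mitochondrial scale and 0.12 after quantile normalization, without a call in either, and Sec24d was at 0.63 without a call on the former. Serpinh1 was not called after centring or on the non-mitochondrial scale and was at -0.24 after quantile normalization.

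Of the genes for procollagen cleavage and crosslinking, 7 of 13 listed were tested, 4 rose and none fell, with a median of 0.64. Of all genes 25.5% were called higher and 7.36% lower, with a median of 0.29, and their shares under other scalings are as above. After centring 1 was called higher (Loxl1) and 1 lower, and 0 were higher and 1 lower on the non-mitochondrial scale and after quantile normalization. The gene called lower in these was Bmp1, the procollagen C-proteinase, named after its values were seen (as deposited -0.66, limma adjusted p = 0.0943). Loxl1, a lysyl oxidase-like enzyme, was at 5.76, 7.08 and 5.77 FPKM in sham and 14.05, 12.6 and 12.3 in I/R (1.06 ± 0.21, limma adjusted p = 0.00687). Pcolce, which speeds removal of the C-terminal propeptide, was at 16.1, 9.69 and 10.7 FPKM in sham and 21.1, 25.6 and 25.8 in I/R (1.01 ± 0.25, limma adjusted p = 0.0149). For both, each I/R sample was above each sham sample. Loxl2, another crosslinking enzyme, rose by 0.82 ± 0.25 (limma adjusted p = 0.0327) and Adamts2, which removes the N-terminal propeptide, by 0.64 ± 0.21 (limma adjusted p = 0.0445), the latter turning to -0.13 on the non-mitochondrial scale.

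Of the collagen receptors, 5 of 10 listed genes were tested, 2 rose and none fell, with a median of 0.47. Of all genes 25.5% were called higher and 7.36% lower, with a median of 0.29. No receptor was called by limma after centring, on the non-mitochondrial scale or after quantile normalization. Itgb1, the beta chain shared by the collagen-binding integrins, was at 31.7, 36.9 and 24.8 FPKM in sham and 56.4, 66.0 and 47.9 in I/R (0.87 ± 0.25, limma adjusted p = 0.0237), but at -0.088 on the log2 scale after quantile normalization. Ddr1, a receptor tyrosine kinase for collagen, was at 2.36, 1.97 and 2.17 FPKM in sham and 4.48, 3.42 and 3.35 in I/R (0.76 ± 0.22, limma adjusted p = 0.0265), but at -0.0011 on the non-mitochondrial scale. Of the laminins and other basement membrane partners, 10 of 15 listed genes were tested, 2 rose and none fell, beside the same 25.5% and 7.36% of all genes. Their median was 0.31. On the non-mitochondrial scale 0 partners were higher and 2 lower, after quantile normalization 1 and 2, and after centring 2 and 1. All genes gave 7.25% higher and 26.1% lower, 13.2% and 14.2%, and 18.5% and 14.2%, in the same order. Lamc1, a laminin chain found in most basement membranes, was at 13.1, 15.1 and 12.5 FPKM in sham and 34.4, 24.5 and 26.4 in I/R (1.05 ± 0.23, limma adjusted p = 0.00905), but was at 0.27 on the non-mitochondrial scale and 0.24 after quantile normalization, without a call in either. With the replicate block 4 of these 10 were called higher, beside 28.2% of all genes.

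Markers of the cells that could carry these mRNAs moved unevenly. Their calls are given on the deposited scale only, where 25.5% of all genes were called higher and 7.36% lower. Of 10 fibroblast markers 3 rose (Tcf21, Gsn and Fbln1) and none fell. The log2 fold change was above 0 for 9 of the 10 but above the median of all genes for 5, and was lowest for Pdgfra (-0.36). The summed FPKM of the fibroblast markers was 762 to 818 in sham and 1036 to 1270 in I/R. Gsn was the most abundant of them, and without it the sums of 397 to 491 in sham and 463 to 563 in I/R overlapped. None of 10 endothelial markers was called by limma, and their sums of 244 to 319 in sham and 259 to 300 in I/R overlapped. Of 9 pericyte and smooth muscle markers Rgs5 rose and Pdgfrb and Kcnj8 fell, with sums of 108 to 295 in sham and 160 to 347 in I/R. Of 9 cardiomyocyte markers tested 8 rose and none fell, with sums of 3656, 4132 and 11948 in sham, the highest in replicate 1, and 24991 to 36339 in I/R, with a median log2 fold change of 2.46, above that of any collagen. Of 4 atrial markers 1 rose, with sums of 8.22 to 72.1 in sham and 18.2 to 147 in I/R, where I/R replicate 3 stood apart in Myl7 (133 FPKM against 2.73 and 3.57) and replicate 1 of each group in Nppa (65.3 in sham and 78.4 in I/R). Of the neutrophil and monocyte markers 3 of the 5 tested (of 7) rose, with sums of 51.5 to 67.2 in sham and 78.5 to 144 in I/R, and of the general leukocyte markers none of the 6 tested (of 8) was called. Of 5 Schwann cell markers 1 rose, and neither the 1 epicardial nor the 2 red blood cell markers tested were called. The epicardial markers Upk3b and Lrrn4 were listed at 0 in every I/R sample and in 2 of 3 sham samples, and Msln in I/R replicates 2 and 3. The part of these cell markers, and of the mitochondrial share, in the collagen values was not tested.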

How the data were processed

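RNA of 6 myocardium samples, 3 sham and 3 I/R grouped by GEO's treatment label, was sequenced from stranded total RNA libraries. The submitters' processing notes name STAR and HTSeq; versions, genome build, strand setting and the FPKM denominator are not given in the sources used here. The deposited values are FPKM per gene, computed by the authors. Rows of the 30452-row table with the same symbol were summed to 28293 genes, and 7092 rows had no symbol. Genes at a mean FPKM of at least 0.5 (10942) entered limma 3.58.1 in R 4.3.3 on log2(FPKM + 0.1) with an intensity trend, Benjamini-Hochberg adjustment over all genes tested and a threshold of 0.05. The same steps were tested on simulated data. For 99.55% of 2000 genes drawn, the 6 FPKM values were proportional to whole fragments within 0.001, which gave fragments per gene (the smallest whole numbers that fit) and relative depth; the main test remained on FPKM.

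All collagens past the filter are named, the 3 highest below it, and pathway genes past the threshold, up to 6 a list, except 1 that is not reported here. The collagens and lists were chosen with earlier results of these data known. Replicate numbers were checked for pairing. Deviations from the group means of samples with the same number correlated at 0.203, 0.117 and 0.118, all above 0.1. A fit with the replicate number as a block was therefore treated as paired. The numbers come from the titles, which name no shared batch. Sham replicate 3 correlated at 0.12 with I/R replicate 2, also above 0.1, so these correlations do not show that samples were paired. Alternatives were other pseudocounts, filters, scalings, limma without the trend, keeping the highest row of a symbol, the block, and leaving out each sample. Promoter windows are RefSeq's (GRCr8), used apart from the expression values, since the authors' build is unknown. Without a known strand setting, overlapping antisense transcripts could share reads.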

Additional observations from a re-analysis of the deposited data

How the results depend on the processing

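The 4 collagens called higher became 7 as TPM and 7 with the replicate block, 2 after median centring, 0 on the non-mitochondrial scale, 0 after quantile normalization, and 0 to 3 when a sample was left out. The block changed no call of another collagen. Among all genes the share called higher was 25.5% as deposited, 31.5% as TPM, 28.2% with the block and 18.5% after centring. That share was 7.25% on the non-mitochondrial scale and 13.2% after quantile normalization. Shares for leaving out sham replicate 3 or an I/R sample are given above. Without I/R replicate 3 the 1 collagen called was not among the 4 called as deposited. Without sham replicate 1 the calls likewise held 1 collagen that was not among them. The causes of the scaling changes were not tested. Collagens called lower numbered 2, against 0 as deposited, after centring, 2 on the non-mitochondrial scale (FPKM divided by the sum outside the mitochondrially encoded mRNAs) and 1 after quantile normalization. In the same order, 14.2%, 26.1% and 14.2% of all genes were called lower, against 7.36% as deposited.

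The basement membrane median of 0.72 moved to -0.065 on the non-mitochondrial scale and -0.17 after quantile normalization, the type VI median to -0.34 and -0.12, and the fibrillar median to -0.36 and -0.30. Centring gave 0.19 for type VI and 0.18 for fibrillar genes, TPM gave 0.62 for fibrillar genes, and no filter on low values gave 0.24 for type VI and 0.14 for fibrillar genes. The medians without the filter cover all 6 type VI and 11 fibrillar genes, where those as deposited cover 4 and 6. Leaving out a sample gave 0.29 to 0.74 for fibrillar genes, the highest without sham replicate 2, 0.47 to 0.87 for basement membrane genes and 0.36 to 0.57 for type VI genes. The 3 tested ratios kept their sign under 2 other pseudocounts and without each sample. The difference of Col1a1 to Col4a1 nearly vanished without I/R replicate 3. Its log2 ratio in I/R replicates 1 and 2 was -0.54 and -0.15, on either side of the sham mean of -0.35.

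Single genes turned negative as follows. On the non-mitochondrial scale the log2 fold change was -0.077 for Col14a1, -0.23 for Col16a1, -0.35 for Col18a1, -0.22 for Col1a2, -0.50 for Col3a1, -0.065 for Col4a1, -0.024 for Col4a2, -0.53 for Col5a3, -0.41 for Col6a1, -0.074 for Col6a2, -0.26 for Col6a3, -0.59 for Col6a6 and -0.072 for Col8a1. After quantile normalization it was -0.12 for Col1a1, -0.49 for Col1a2, -0.69 for Col3a1, -0.33 for Col4a1, -0.17 for Col4a2, -0.12 for Col5a3, -0.58 for Col6a1, -0.23 for Col6a2 and -0.0027 for Col6a3. After centring it was -0.014 for Col5a3 and -0.14 for Col6a6. Without sham replicate 1 it was -0.10 for Col5a3 and -0.12 for Col6a6, and without I/R replicate 3 it was -0.26 for Col6a6. Leaving out a sample took Col5a3 from -0.10 to 0.77 (without sham replicate 2) and Col6a6 from -0.26 to 0.49 (without I/R replicate 1). Col6a2 also lost its call with a pseudocount of 1 or 0.01, with no filter and without the trend. With 3 samples a group, and 47 fragments at the lowest tested value, differences in low genes were least precise.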
